A study of Mus musculus with 4 samples.

Results

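The secreted matrix glycoproteins examined here are 10 genes, namely Spp1, Thbs1, Thbs2, Tnc, Sparc, Fn1, Dcn, Lum, Bgn and Lox. They were chosen by name with earlier results of these data known, as genes whose symbol stood on a probe, out of 27670 gene names measured. They were covered by 19 probes, and all 10 genes were bright enough to be tested, among 19127 tested genes. RNA came from brains of male C57BL/6J mice aged 8 to 12 weeks, in groups of 3 mice at 24 h and 6 h after saline was given into the cerebral ventricle. In the occluded mice, a nylon filament passed through the neck was left in the middle cerebral artery (permanent middle cerebral artery occlusion, PMCAO, a model of ischemic stroke), and in sham mice the neck vessel was exposed and the wound sutured. Isoflurane anaesthesia and the saline injection were common to both. The design text puts the hemisphere opposite the occlusion on the arrays, while the labels say only brain.

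Each time had 2 two-colour arrays that carried PMCAO RNA in one dye and sham RNA in the other. Sample 1 had PMCAO RNA in Cy5 and sample 2 had it in Cy3, so that a dye effect has opposite signs on the 2 arrays of a time. The labels do not say whether the 2 arrays hold separate RNA or how the RNA of 3 mice was combined. The p-values therefore rest on array-to-array spread alone, and that spread may be technical. The share of spots well above background ranged from 66.3% to 73.7% for PMCAO and from 67.3% to 73.6% for sham. All 10 neuron markers, all 9 oligodendrocyte markers and all 10 astrocyte markers tested were well above background in all 8 channels, as the brain label requires. The 4 arrays shared 1 slide and 1 scan, which left no batch to test.

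These genes encode proteins that cells release into the space around them. Fibronectin and the small leucine-rich proteoglycans build and organise fibrils, and lysyl oxidase crosslinks collagen and elastin. Matricellular proteins such as osteopontin, the thrombospondins, tenascin-C and SPARC do little structural work and instead signal through integrins, CD44 and other cell-surface receptors. In the adult brain, fibrillar matrix lies mostly in the meninges and around vessels, and matricellular genes are known as genes of injury and repair.

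Promoter sequence is shown for the genes that were higher at 24 h with a motif match, so that the matches can be read in place. Windows of 5 of the 10 genes were taken from the RefSeq promoter table (build GRCm38.p6), and the promoter of Lox was not searched. Each window is the 250 bases before the first listed transcription start, written 5′ to 3′ on the gene's strand. Capitals mark matches to the motifs searched on both strands, which were AP-1 (TGANTCA), Runx (TGTGGT), STAT (TTCNNNGAA) and the TATA box (TATAAA). Spp1 lies at chr5:104434861-104435110 (plus strand), Tnc at chr4:64047016-64047265 (minus strand) and Thbs2 at chr17:14694263-14694512 (minus strand).
Spp1: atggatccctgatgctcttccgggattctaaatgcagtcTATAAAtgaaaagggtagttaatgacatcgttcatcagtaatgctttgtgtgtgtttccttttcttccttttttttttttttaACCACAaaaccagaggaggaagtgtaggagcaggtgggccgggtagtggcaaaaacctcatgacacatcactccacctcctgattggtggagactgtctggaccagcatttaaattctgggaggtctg
Tnc: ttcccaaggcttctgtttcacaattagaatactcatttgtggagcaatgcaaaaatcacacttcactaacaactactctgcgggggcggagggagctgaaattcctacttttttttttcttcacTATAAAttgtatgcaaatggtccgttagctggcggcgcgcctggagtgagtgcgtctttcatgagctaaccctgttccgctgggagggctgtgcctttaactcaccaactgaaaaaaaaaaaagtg
Thbs2: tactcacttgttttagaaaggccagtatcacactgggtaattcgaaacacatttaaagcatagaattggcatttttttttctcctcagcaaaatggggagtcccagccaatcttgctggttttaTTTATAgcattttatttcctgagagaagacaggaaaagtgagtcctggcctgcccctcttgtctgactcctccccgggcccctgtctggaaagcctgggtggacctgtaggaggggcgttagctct
The Spp1 window held a Runx match on the opposite strand, at 128 to 123 bases before the start, and a match to TATAAA at 211 to 206 bases. Tnc had a match to TATAAA at 126 to 121 bases and Thbs2 had one at the same distance on the opposite strand. No motif overlapped another. The windows of Sparc and Bgn held none of the 4 motifs. Among 32851 windows of the same length, 14.0% held the Runx motif, 12.4% the TATA box, 7.02% the STAT motif and 6.75% the AP-1 motif. A match is a run of letters and was not tested as a binding site.

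At 24 h, 7 of the 10 genes were higher in PMCAO than in sham brain and 0 were lower. Spp1 and Thbs1 had the largest ratios, at 7.88-fold and 5.19-fold, followed by Lox at 2.65-fold and Dcn at 2.19-fold. Thbs2, Tnc and Sparc were higher by 1.38-fold to 1.50-fold, and Fn1, Lum and Bgn did not pass the test. The order at the top depends on the processing. From the scanner's processed signals the log2 ratio was 3.67 for Thbs1, 2.96 for Spp1 and 2.82 for Lox. With a background-correction offset of 10 in place of 50, it was 3.06 for Thbs1 and 2.99 for Spp1. The test was limma's moderated test on log2 ratios with Benjamini-Hochberg adjustment over all genes tested, at an adjusted p of 0.05. Of all genes tested at 24 h, 7.84% were called higher and 4.52% lower. With median centring in place of loess (a curve that removes dye bias along signal intensity), 0 of the 10 genes passed, although all 10 ratios stayed above 0. Over all genes, 1499 were called higher and 864 lower, and from the scanner's processed signals 1243 and 1163. The median log2 ratio of the 10 genes was 0.55 and all 10 were above 0, while the median of all genes was 0.000791 and 50.1% were above 0. Throughout, a log2 ratio is PMCAO over sham from the gene's brightest probe, its error is the model's standard error over n = 2 arrays a time, and a level is the log2 normalised signal of 1 channel. Levels of different genes come from different probes and cannot be compared. In this bulk tissue, a change in the number of cells of a type and a change in RNA per cell cannot be told apart.

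**Figure D1:**
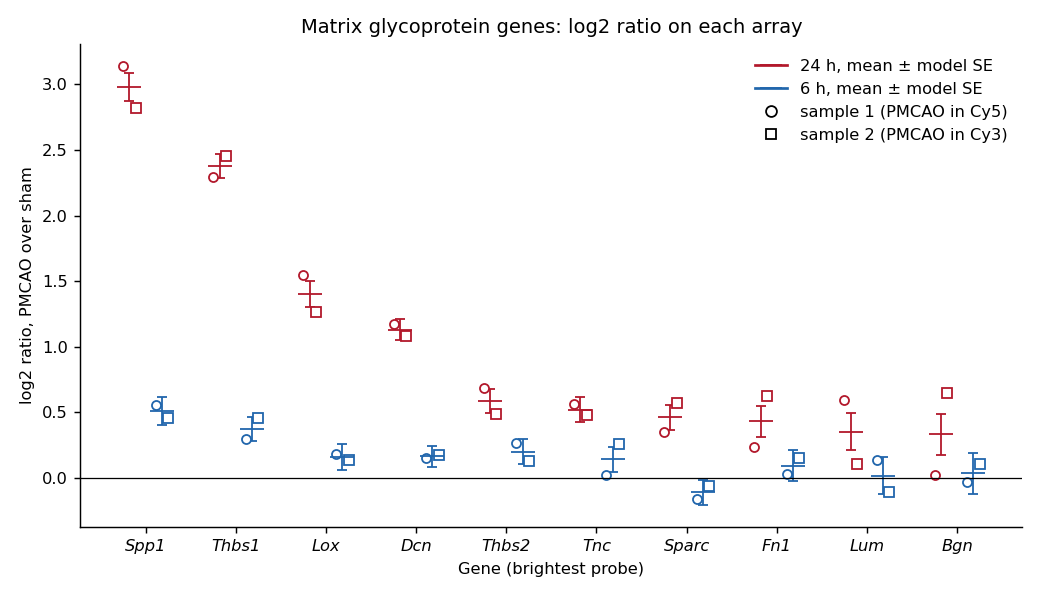
Log2 ratio of PMCAO over sham (y axis) for each of the 10 genes (x axis), with 24 h in red left of 6 h in blue. Open circles are sample 1, open squares sample 2, and bars the mean ± model SE of 2 arrays. Spp1 and Thbs1 stand above 2 at 24 h, and the highest array value at 6 h is 0.56, for Spp1.

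Spp1 encodes osteopontin, a secreted phosphoprotein that binds integrins and CD44. Its level at 24 h was 15.20 and 15.17 in PMCAO brain, against 12.05 and 12.35 in sham brain. The PMCAO and sham channels were about 3 log2 units apart on both arrays and did not overlap. The log2 ratio was 3.14 on sample 1 and 2.82 on sample 2, with a mean of 2.98 ± 0.11 (n = 2 arrays, limma adjusted p = 0.000201). The Spp1 probe (chr5:103631152-103631211 in build mm7, as the file gives it) was printed 10 times on each array. Its kept spots ran from 3.11 to 3.17 on sample 1 and from 2.78 to 2.84 on sample 2. The 2 arrays thus differed by more than the spots within an array did, which is a difference between arrays or dyes that the mean of the swap averages.

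Thbs1 encodes thrombospondin-1, a matricellular protein of platelets and injured tissue that activates latent TGF-beta and inhibits vessel growth. At 24 h its level was 9.18 and 8.94 in PMCAO brain, against 6.88 and 6.49 in sham brain. The groups were separated by over 2 log2 units on each array. The log2 ratio was 2.38 ± 0.09 (n = 2 arrays, limma adjusted p = 0.000223), with 2.30 on sample 1 and 2.45 on sample 2. Starting from the scanner's background-subtracted signals, the ratio was 3.67, and as the mean of its 3 probes it was 1.20, both past the test. Its other probes lay near background. They are shown here because they bind other places in the same transcript and only bound the ratio.
Thbs1 probe at chr2:117861824-117862004 (mm7, plus strand): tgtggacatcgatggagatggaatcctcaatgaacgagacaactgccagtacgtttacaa
Thbs1 probe at chr2:117863442-117863501 (mm7, plus strand): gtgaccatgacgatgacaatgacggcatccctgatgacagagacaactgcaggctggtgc
On both, PMCAO was well above background on both 24 h arrays and sham on neither, so only a lower bound can be given. PMCAO was at least 1.35-fold higher on the first and at least 1.69-fold higher on the second, taking as the sham level the higher of the lowest detected signal and the probe's own. The brightest probe lies at chr2:117866887-117866946.

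Thbs2 encodes thrombospondin-2, which like thrombospondin-1 restrains vessel growth. Channel levels at 24 h were 8.55 and 8.37 in PMCAO brain, against 7.86 and 7.89 in sham brain. Both PMCAO values lay above both sham values. The log2 ratio was 0.59 ± 0.09 (n = 2 arrays, limma adjusted p = 0.0179). Tnc encodes tenascin-C, a large hexameric glycoprotein that appears in injured tissue. The 24 h level was 8.21 and 8.43 in PMCAO brain, against 7.65 and 7.95 in sham brain. The groups did not overlap, and the log2 ratio was 0.52 ± 0.10 (n = 2 arrays, limma adjusted p = 0.0261). Of its other 2 probes, with mean log2 ratios of 0.17 and 0.08, neither was well above background at 24 h, and as the mean of all 3 probes Tnc stood at 0.26 and did not pass the test. Sparc encodes a collagen-binding matricellular protein that in brain is expressed by glia and vessels. At 24 h its level was 14.24 and 14.42 in PMCAO brain, against 13.89 and 13.84 in sham brain. The log2 ratio was 0.46 ± 0.09 (n = 2 arrays, limma adjusted p = 0.0355), and its second probe gave 0.44. Sparc lost its call on the 24 h arrays alone, and leaving out either 6 h array repeats that 24 h fit. It also lost its call without sample 2 at 24 h, and on the scanner's processed signals and the deposited series table made from them. The log2 ratio was between 0.35 and 0.46 in all of these. With median centring the call was lost too, at 0.28.

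Lox encodes lysyl oxidase, the copper enzyme that crosslinks collagen and elastin. Channel levels at 24 h were 8.34 and 7.88 in PMCAO brain, against 6.80 and 6.61 in sham brain. Both PMCAO values lay over 1 log2 unit above the sham values. The log2 ratio was 1.41 ± 0.10 (n = 2 arrays, limma adjusted p = 0.00123), with 1.55 on sample 1 and 1.26 on sample 2. From the scanner's processed signals it was 2.82, still past the test. Dcn encodes decorin, a small leucine-rich proteoglycan that binds collagen fibrils and TGF-beta. Its level at 24 h was 13.58 and 13.60 in PMCAO brain, against 12.40 and 12.51 in sham brain. The 2 arrays lay close together, and the log2 ratio was 1.13 ± 0.08 (n = 2 arrays, limma adjusted p = 0.00128). A second Dcn probe was well above background in no channel, and the mean of both probes was 0.57, past the test.

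The genes that did not pass at 24 h were Fn1, Lum and Bgn. Fn1 encodes fibronectin, the adhesive glycoprotein that integrin alpha5 binds. The 24 h level was 9.83 and 9.94 in PMCAO brain, against 9.59 and 9.31 in sham brain. The groups did not overlap, but the log2 ratio was 0.24 on sample 1 and 0.63 on sample 2, with a mean of 0.43 ± 0.12 (n = 2 arrays, limma adjusted p = 0.0756). The 10 spots of the brightest Fn1 probe ran from 0.18 to 0.27 on sample 1 and from 0.59 to 0.66 on sample 2. The gap between the arrays was thus wider than the scatter among spots. Its 3 probes are shown because they lie along one transcript and gave like values at 24 h.
Fn1 probe at chr1:71832689-71834926 (mm7, minus strand, brightest): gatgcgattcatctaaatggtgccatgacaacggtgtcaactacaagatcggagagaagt
Fn1 probe at chr1:71839394-71839453 (mm7, minus strand): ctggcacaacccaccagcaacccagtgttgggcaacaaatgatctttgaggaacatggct
Fn1 probe at chr1:71869155-71869913 (mm7, minus strand): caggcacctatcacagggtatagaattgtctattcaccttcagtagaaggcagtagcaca
Their mean log2 ratios at 24 h were 0.43, 0.46 and 0.28 in this order.

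Lum encodes lumican, a small leucine-rich proteoglycan that sets collagen fibril spacing. At 24 h its level was 10.57 and 10.43 in PMCAO brain, against 9.97 and 10.32 in sham brain. The ratio was 0.60 on sample 1 and 0.11 on sample 2, so the arrays differed by more than the mean of 0.35 ± 0.14 (n = 2 arrays, limma adjusted p = 0.171). Bgn encodes biglycan, a close relative of decorin that can also signal through toll-like receptors. Channel levels at 24 h were 7.68 and 7.78 in PMCAO brain, against 7.66 and 7.14 in sham brain. On sample 1 the channels were nearly equal (0.024) and on sample 2 they were 0.64 apart, with a mean of 0.33 ± 0.16 (n = 2 arrays, limma adjusted p = 0.233). The 95% confidence interval of the Bgn log2 ratio ran from -0.057 to 0.73, an interval that holds the ratios of Tnc and Sparc. The second Bgn probe was well above background in no channel. Without sample 1 of 24 h, Fn1 (0.63) and Bgn (0.64) passed, and without sample 2 of 24 h, Lum (0.60) passed, each with 1 dye orientation left. Over all genes these fits called 2932 higher and 2854 lower without sample 1, and 2502 and 1530 without sample 2.

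**Figure D2:**
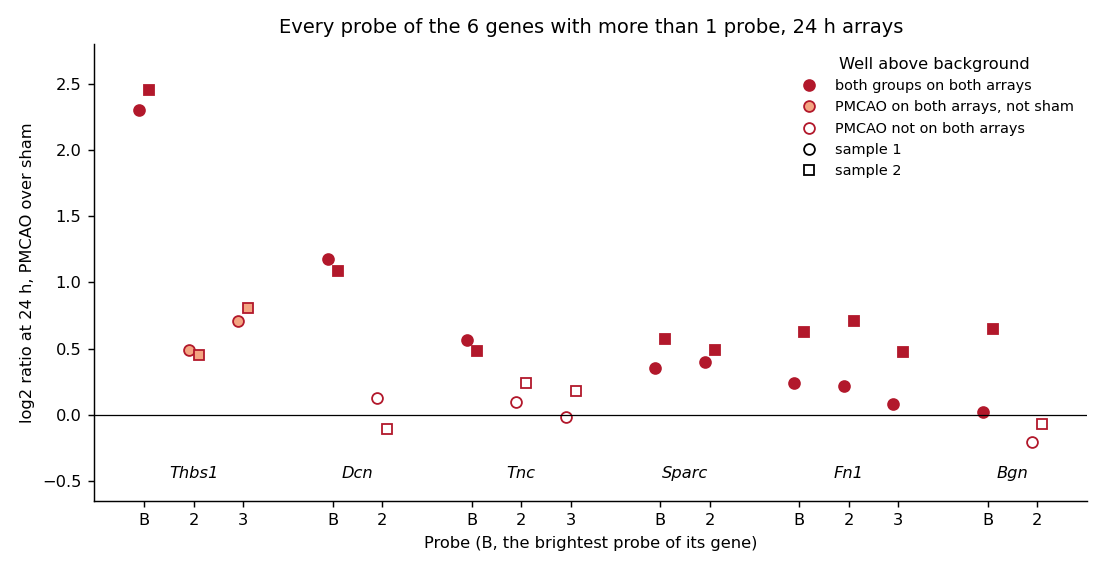
Log2 ratio of PMCAO over sham at 24 h (y axis) for every probe of the 6 genes with more than 1 probe (x axis, with B the brightest). Circles are sample 1 and squares sample 2. Filled points are well above background in both groups, pale points in PMCAO and not in sham, and open points not on both PMCAO arrays. The probes of Sparc and Fn1 lie at like heights, while pale points are only bounds and open points are not measured differences.

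At 6 h, 0 of the 10 genes passed the limma test in either direction, and 2 of them, Spp1 and Thbs1, had an unadjusted p under 0.05. How many of all genes fell under that unadjusted cut was not counted. By the adjusted test, 0.816% of all genes tested at 6 h were called higher and 0.0366% lower. The median log2 ratio of the 10 genes was 0.15 and 9 of them were above 0, or 7 from the scanner's processed signals. For all genes the median was -0.0051 and 48.1% were above 0. Spp1 had levels of 12.99 and 12.98 in PMCAO brain, against 12.43 and 12.52 in sham brain. The groups did not overlap, and the log2 ratio was 0.51 ± 0.11 (n = 2 arrays, limma adjusted p = 0.170). Thbs1 had levels of 7.28 and 7.26 in PMCAO brain, against 6.98 and 6.80 in sham brain, where it was well above background on 1 of 2 arrays. Its log2 ratio was 0.38 ± 0.09 (n = 2 arrays, limma adjusted p = 0.238), and from the scanner's processed signals it was 1.66 and passed. Fitted on the 6 h arrays alone, Spp1 and Thbs1 both passed, which makes 2 of the 10 genes. Leaving out either 24 h array repeats that 6 h fit. Over all genes, that fit called 946 higher and 362 lower, against 156 and 7 with all arrays.

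The remaining 8 genes had log2 ratios at 6 h between -0.11 and 0.20. Thbs2 stood at 0.20, Dcn at 0.17, Lox at 0.16 and Tnc at 0.14. Both arrays were above 0 for each of these. Fn1 stood at 0.094, Bgn at 0.036 and Lum at 0.018, and Sparc at -0.11 with both arrays below 0. The second Sparc probe, well above background in every channel, gave 0.065 at 6 h with both arrays above 0. Lox in sham was well above background on 1 of 2 arrays at 6 h.

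**Figure D3:**
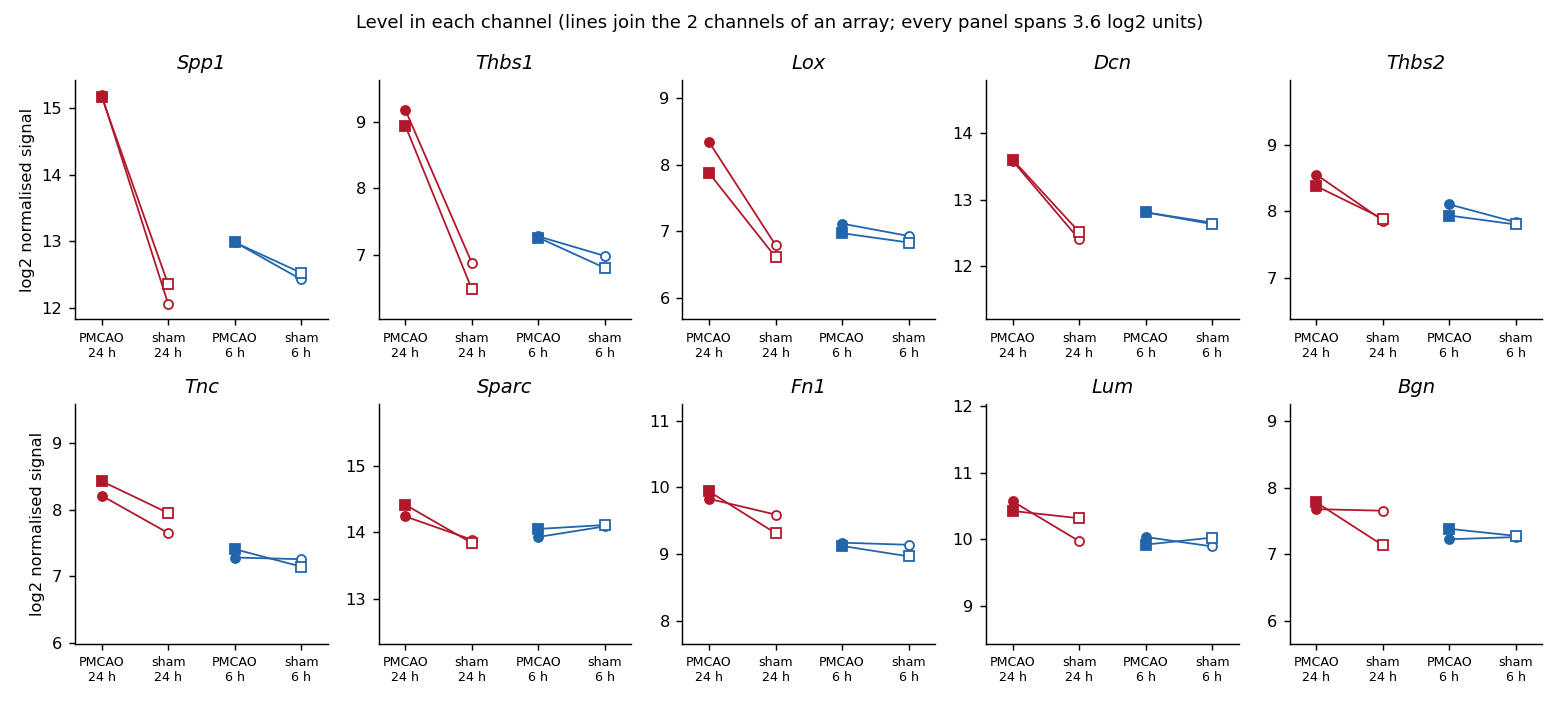
Log2 normalised signal (y axis, the same span in every panel) of the 10 genes in PMCAO and sham channels at 24 h (red) and 6 h (blue). Filled points are PMCAO, open points sham, circles sample 1 and squares sample 2, and lines join the 2 channels of an array. For all 10 genes the PMCAO channels at 24 h lie above the other 6 channels, with the widest gaps for Spp1, Thbs1, Lox and Dcn.

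The ratio at 24 h was larger than that at 6 h for 4 of the 10 genes by the test of the difference itself, which compares the log2 ratios of the 2 times in one fit. Of all genes tested, 1.3% were called for a larger and 0.298% for a smaller ratio at 24 h. The difference, 24 h minus 6 h, was 2.47 ± 0.15 for Spp1 (limma adjusted p = 0.00571, n = 2 arrays per time). It was 2.00 ± 0.13 for Thbs1 (limma adjusted p = 0.00678). It was 1.24 ± 0.14 for Lox (limma adjusted p = 0.0238) and 0.96 ± 0.12 for Dcn (limma adjusted p = 0.0274). The call of Lox was lost on the scanner's processed signals, and that of Dcn on those signals, as the mean of its probes and without either 6 h array. Median centring left 0 calls, and without sample 1 of 24 h there were 7, where over all genes 1576 were called larger and 1368 smaller, against 248 and 57 with all arrays. The other 6 genes had differences between 0.30 and 0.57 that did not pass. The largest of these was Sparc, at 0.57 ± 0.13 (limma adjusted p = 0.129). Its brightest probe lay below sham at 6 h and above it at 24 h, while its second probe lay above sham at both times.

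**Figure D4:**
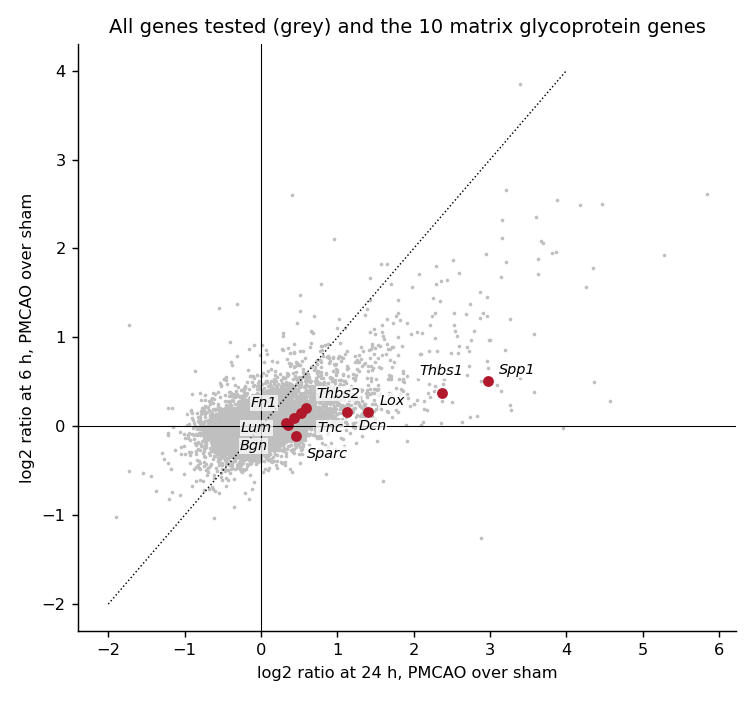
Log2 ratio of PMCAO over sham at 24 h (x axis) against that at 6 h (y axis) for all genes tested (grey) and the 10 matrix glycoprotein genes (red, named). The dotted line marks equal ratios. All 10 genes lie right of it, and Spp1, Thbs1, Lox and Dcn lie farthest from it.

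Levels were also compared between the times within each group of mice. A separate-channel fit in limma over 19117 genes set PMCAO at 24 h against PMCAO at 6 h, and sham at 24 h against sham at 6 h. In PMCAO brain 9 of the 10 genes were higher at 24 h than at 6 h and 0 were lower, where 11.1% of all genes were called higher and 9.15% lower. Spp1 was higher by 2.20 ± 0.10 and Thbs1 by 1.79 ± 0.17 on the log2 scale, with limma adjusted p of 2.06e-05 and 0.000368. Lox was higher by 1.06, Tnc by 0.97, Dcn by 0.78 and Fn1 by 0.74. Lum was higher by 0.52, Thbs2 by 0.44 and Sparc by 0.34, and Bgn, at 0.42, did not pass (limma adjusted p = 0.0884).

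In sham brain 0 of the 10 genes passed the limma test between 24 h and 6 h, and 5 had an unadjusted p under 0.05. The share of all genes under that unadjusted cut was not counted. By the adjusted test, 1.89% of all genes in sham were called higher and 1.59% lower at 24 h. Tnc in sham was at 7.65 and 7.95 at 24 h, against 7.25 and 7.14 at 6 h, a difference of 0.60 ± 0.14 (limma adjusted p = 0.0571). Fn1 in sham was at 9.59 and 9.31 at 24 h, against 9.14 and 8.97 at 6 h, a difference of 0.40 ± 0.11 (limma adjusted p = 0.0865). For both genes, and for Thbs2, the sham channels did not overlap between the times and lay higher at 24 h. For Spp1, Sparc, Dcn and Lox they did not overlap either and lay lower at 24 h. The share of all genes without overlap was not counted. Tnc passed with quantile normalisation. Without sample 1 of 24 h, 2 of the 10 genes passed in sham, where 846 of all genes were called higher and 763 lower. Without sample 2 of 24 h, 3 passed, where 418 of all genes were called higher and 385 lower, against 361 and 304 with all arrays. Spp1 in sham differed by -0.27, Sparc by -0.24, Thbs1 by -0.21 and Dcn and Lox by -0.18. Lum, Bgn and Thbs2 in sham differed by 0.18, 0.13 and 0.06.

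Genes of the same pathways were set beside the 10, from lists chosen by function. The shares of all genes tested were 7.84% called higher and 4.52% lower at 24 h, and 0.816% and 0.0366% at 6 h. At 24 h, 13 of 38 tested relatives of fibronectin and the matricellular proteins were higher in PMCAO and 1, Ccn3, was lower, with a median log2 ratio of 0.34. Ccn1, a matricellular protein of immediate response to injury, had levels of 11.00 and 11.04 in PMCAO brain and 8.70 and 8.63 in sham brain at 24 h. Its log2 ratio was 2.35 ± 0.10 at 24 h (n = 2 arrays, limma adjusted p = 0.000258) and 1.63 ± 0.10 at 6 h (limma adjusted p = 0.00593). It was the only gene of this list called at 6 h. Emilin2, an elastin-associated glycoprotein, stood at 1.26 at 24 h and 0.64 at 6 h, where it did not pass. For neither Ccn1 nor Emilin2 was the ratio called larger at 24 h than at 6 h. In sham brain both genes were called lower at 24 h than at 6 h. In PMCAO brain Emilin2 was called higher at 24 h and Ccn1 was not called. Tgfbi, a TGF-beta-induced adhesion protein, stood at 1.44 ± 0.08 at 24 h (limma adjusted p = 0.000619) and 0.18 at 6 h, and this ratio was larger at 24 h by 1.26 ± 0.11 (limma adjusted p = 0.0140).

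Decorin's relatives were counted in the same way. Of 10 tested small leucine-rich proteoglycans, 0 were higher and 2 were lower at 24 h, with a median log2 ratio of -0.14, and 0 were called at 6 h. Ogn, osteoglycin, had levels of 9.55 and 9.42 in PMCAO brain and 10.04 and 10.37 in sham brain, with a log2 ratio of -0.72 ± 0.13 (n = 2 arrays, limma adjusted p = 0.0246). Omd, osteomodulin, had a log2 ratio of -0.59 ± 0.08 (limma adjusted p = 0.0118). Prelp, a proteoglycan anchoring basement membrane to collagen, stood at -0.37 at 6 h and did not pass. Of 13 tested genes of the lysyl oxidase family and collagen crosslinking, 3 were higher and 0 lower at 24 h, with a median of 0.26, and 0 were called at 6 h. These were Loxl1 at 0.87 ± 0.09 and Loxl2 at 0.74 ± 0.08, both lysyl oxidase relatives with an adjusted p of 0.00522 in limma, and Serpinh1, the collagen chaperone HSP47, at 0.54. P4ha2, a subunit of collagen prolyl hydroxylase, stood at 0.24 at 6 h and did not pass.

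Among 27 tested receptors of these proteins, 6 were higher and 2 lower at 24 h, with a median log2 ratio of 0.30, and 1 was higher at 6 h. Cd44, a receptor of osteopontin and hyaluronan, had levels of 10.90 and 10.85 in PMCAO brain and 9.14 and 9.19 in sham brain at 24 h. Its log2 ratio was 1.70 ± 0.08 at 24 h (n = 2 arrays, limma adjusted p = 0.000404) and 0.53 at 6 h, which did not pass. Tlr2, a toll-like receptor to which biglycan binds, stood at 2.13 ± 0.09 at 24 h (limma adjusted p = 0.000227) and 0.64 ± 0.09 at 6 h (limma adjusted p = 0.0495). The other higher genes were Itga5, Sdc1, Sdc4 and Tlr4, and the lower ones were Itga4 and Itga8. Of 20 genes of TGF-beta signalling and its targets, 6 were higher and 1, Ltbp4, was lower at 24 h, with a median of 0.15. Ltbp2, which binds fibrillin, stood at 1.14 at 24 h. Smad3, a signal transducer of TGF-beta, stood at 0.39 at 6 h and did not pass.

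**Figure D5:**
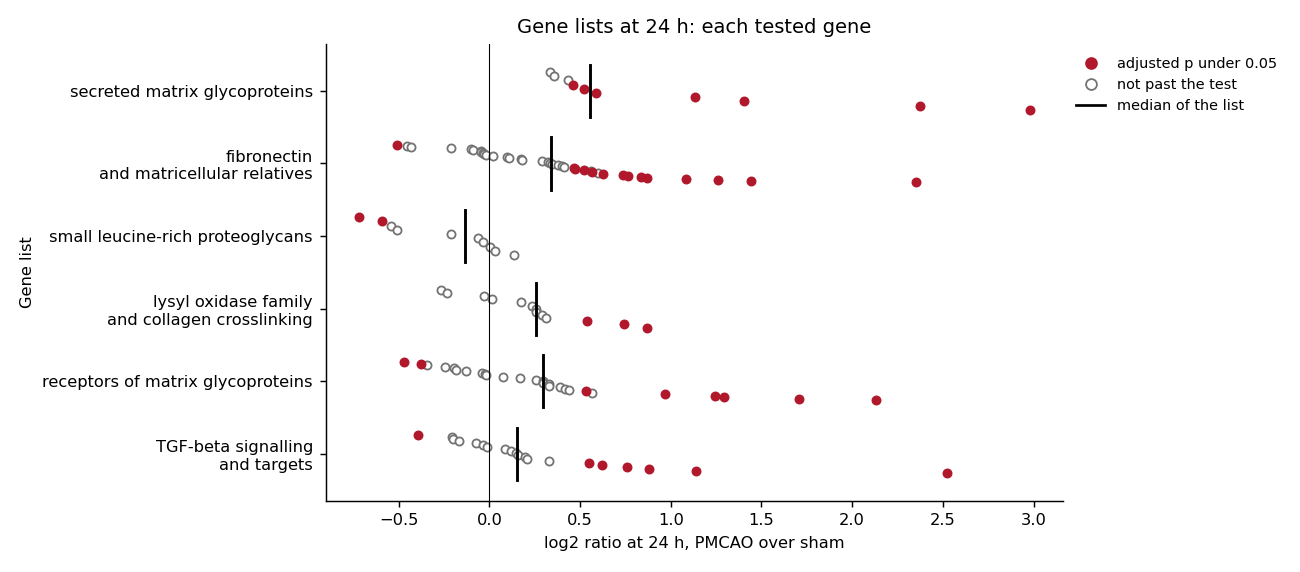
Log2 ratio of PMCAO over sham at 24 h (x axis) of each tested gene, with the 10 matrix glycoprotein genes in the top row and the pathway lists below (y axis). Filled points passed the test and vertical bars are list medians, which run from -0.14 for small leucine-rich proteoglycans to 0.55 for the 10 genes.

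Markers of several cell types differed between PMCAO and sham at 24 h, where 7.84% of all genes tested were called higher and 4.52% lower. Of macrophage and activated phagocyte markers, 11 of 15 were higher in PMCAO and 0 lower, with a median log2 ratio of 0.84. The summed signal of that list was 150732 to 189141 in PMCAO and 144415 to 174546 in sham, ranges that overlap. A summed signal adds the linear signals of different probes, so the brightest probes of a list weigh most in it. Of neutrophil markers, 7 of 10 were higher, with summed signals of 63803 to 74901 in PMCAO and 2018 to 2191 in sham, while Elane was above background in no channel. Of platelet markers, 4 of 9 were higher, namely Clec1b, Itga2b, Pf4 and Ppbp, with summed signals of 3644 to 4167 in PMCAO and 2165 to 2236 in sham, and Gp1ba and Gp6 were above background in no channel. Of meningeal and perivascular fibroblast markers, 4 of 14 were higher and 0 lower, with summed signals of 29728 to 30128 in PMCAO and 22774 to 23871 in sham.

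Of pericyte and smooth muscle markers, 2 of 10 were higher, and of endothelial markers 4 of 12 were higher and 2 lower. Of astrocyte markers, 4 of 10 were higher, with summed signals of 269737 to 290967 in PMCAO and 264005 to 290446 in sham. Of microglia markers, 0 of 10 were higher and 5 were lower. Of red blood cell markers, 1 of 4 was higher and of choroid plexus markers 1 of 8 was lower, which are single calls in short lists. For neuron markers 0 of 10 and for oligodendrocyte markers 0 of 9 were called. At 6 h, 3 of 10 neutrophil markers were higher, with summed signals of 12859 to 13904 in PMCAO and 2947 to 3277 in sham. Among endothelial markers 1, Slco1a4, was lower at 6 h. The shares of all genes tested at 6 h were 0.816% called higher and 0.0366% lower. The part of any of these cell types in the ratios of the matrix genes was not tested.

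The pattern of Spp1 over the 4 arrays, as the distance between log2 ratios, was nearest to that of Il1b (distance 0.312), then Cxcl10 (0.349) and Il6 (0.458), all inflammatory signals. Il1b stood at 2.91 and 2.86 at 24 h and 0.42 and 0.60 at 6 h. For Bgn, the member with the lowest ratio at 24 h, the nearest genes were Dhrs1, Npc2 and Tmem30c, at distances of 0.052 to 0.067. Dhrs1 stood at 0.026 and 0.68 at 24 h, and Bgn at 0.024 and 0.64. These are descriptions over 4 arrays that share their RNA groups and slide.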

How the data were processed

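The authors deposited 1 scanner table per array, with the intensity of each spot in both channels (mean, local background and processed) and its log10 ratio, Cy5 over Cy3. Agilent Feature Extraction 9.5.3.1 produced them, as the submitters' processing notes and the headers state. The series table deposited by the authors gives a score per probe, whose size matched the linear Cy5 over Cy3 ratio of processed signals, within rounding, for 100.0% of probes. Its sign was negative on sample 1, where the column medians were -0.91 (24 h) and -0.96 (6 h), and positive on sample 2, where they were 0.95 (24 h) and 0.96 (6 h). The meaning of that sign and any further centring stayed unknown, so it served only as an alternative, with direction taken from the dyes in the labels. Per the file headers, probe positions are those of build mm7.

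Mean signals were corrected by normexp (offset 50) and loess-normalised within arrays in limma 3.58.1 under R 4.3.3, with control spots at weight 0, outlier spots (112 to 142 per array, 8 on the 10 genes' probes over all arrays) removed and saturated spots kept. Ratios were turned to PMCAO over sham, replicate spots were averaged, and each gene was represented by its brightest probe over the 4 arrays. Testing required a signal well above background on both arrays of any 1 RNA group. Of 41174 probes, 22951 were named through accession, 6659 by symbol and 3109 by older symbol in a RefSeq table (GRCm38.p6), and 8455 kept the name in the files.

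One linear model of all 4 arrays gave a coefficient per time and their difference, with 2 residual and 3.53 prior degrees of freedom. It held no dye term. Each time held both orientations, so a dye effect averages out of the mean ratio but stays in the spread between arrays. Sample number and dye orientation coincide, so the block by sample number, used as an alternative, also stands for dye. Channels were compared between times by a separate-channel fit after Aquantile normalisation, with an intraspot correlation of -0.42. The number of arrays limits the precision. The fits were tested on simulated arrays. Plots used matplotlib 3.10.9 under Python 3.11.15. Alternatives covered background correction, centring, offset, the filter on dim probes, the choice of probe, flagged spots, the block, arrays left out and single times.

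The 10 genes and the lists were chosen with earlier results of these data known. All 10 genes are named with every probe, together with the 2 list genes of smallest p per list and time. Other list genes, and the nearest genes by pattern, are named beside a count or a distance. Of the genes this rule names, 1 is not reported here.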

Additional observations from a re-analysis of the deposited data

Results flagged for a closer look

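For 4 of the 10 genes the log2 ratio of PMCAO over sham differed between the times by the test of the difference in limma. The 24 h minus 6 h difference was 2.47 for Spp1, with ratios of 2.98 at 24 h and 0.51 at 6 h. It was 2.00 for Thbs1, with 2.38 at 24 h and 0.38 at 6 h. It was 1.24 for Lox, with 1.41 at 24 h and 0.16 at 6 h, and 0.96 for Dcn, with 1.13 at 24 h and 0.17 at 6 h. Among the pathway genes named, it was 1.49 for Tlr2, 1.26 for Tgfbi and 1.17 for Cd44.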

How the results depend on the processing

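Of 404 recomputed values of single genes, 346 kept their direction and their side of the threshold, 25 lost a call, 26 gained one and 7 reversed. Many of these values are not separate checks. The log2 ratio at 6 h cannot change when a 24 h array is left out, nor that at 24 h when a 6 h array is. Fits of a single time repeat such fits, and the deposited series table repeats the processed signals within rounding. At 24 h the count of 7 genes fell to 0 with median centring in place of loess, where 13 genes of all tested were called higher and 0 lower, and ran from 6 to 9 with an array left out. At 6 h the count of 0 became 1 on processed signals, 2 on the 6 h arrays alone, and ran from 0 to 2 with an array left out (2 without either 24 h array). For the 24 h minus 6 h difference the count of 4 became 2 on processed signals, 0 with median centring, 2 among probes above background in all channels (where Thbs1 and Lox had no value), and 3 to 7 with an array left out (7 without sample 1 of 24 h). In sham the count of 0 became 1 with quantile normalisation and 0 to 3 with an array left out (2 without sample 1 and 3 without sample 2 of 24 h), and in PMCAO the count of 9 ran from 6 to 10. With the sample number as a replicate block, the test called all 10 genes at 24 h (Fn1, Lum and Bgn among them), 2 at 6 h and 9 in the difference. The samples share only a number and a dye orientation. Across genes, their deviations from the mean of their time correlated at 0.72. Each time has 2 arrays, so the deviations of sample 2 mirror those of sample 1 and the second pair repeats the first.

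The values that reversed were near 0. Lum at 6 h was -0.021 on processed signals, -0.020 from the deposited series table, and between -0.10 (without sample 1 of 6 h) and 0.14 with an array left out. Bgn at 6 h was -0.067 on processed signals, -0.066 from the deposited series table, and between -0.033 (without sample 2 of 6 h) and 0.11 with an array left out. The 24 h minus 6 h difference of Bgn lay between -0.013 (without sample 2 of 24 h) and 0.61. An array left out leaves 1 dye orientation at that time, and a lone array is assumed to vary like the others. The cause of the other changes was not tested. Dim probes limit Thbs1 and Lox, whose sham signals lay near background.

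Over all genes, the counts of higher and lower genes were 1499 and 864 at 24 h, 156 and 7 at 6 h, and 248 and 57 between the times. With the block they were 3921 and 3691, 1141 and 581, and 1696 and 1538. On processed signals they were 1243 and 1163, 224 and 22, and 54 and 8. Median centring put the median of all genes at -0.10 for the difference, against 0.014 with loess.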
